A study of Mus musculus with 6 samples.

Results

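Plasma proteins are made long before the liver forms. In the early mouse embryo they come from the visceral endoderm, the epithelium that surrounds the epiblast and the extraembryonic ectoderm and supplies them with lipids, hormones and metals. The 7 genes described here code for proteins that this tissue, and later the liver, secretes. They are alpha-fetoprotein (Afp), transthyretin (Ttr), albumin (Alb), the fibrinogen chains Fga, Fgb and Fgg, and Ambp, the precursor of alpha-1-microglobulin and bikunin. They were selected by symbol among the array features that name 1 gene in the platform annotation, and all 7 were found among 19938 genes. Where a gene had several features, the brightest feature on average was taken.

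The samples were pools of 30 whole CD1 mouse embryos, an outbred stock, taken at embryonic day 5.0 and cultured for 8 hours. Embryos of one group grew in narrow cavities of 90 µm diameter and those of the other in wide cavities of 180 µm, with 3 pools each. The series asks how embryos with and without outside mechanical cues differ. Every pool was cultured, and uncultured embryos were not analysed here. Epiblast, extraembryonic ectoderm and visceral endoderm were hybridized together, so fewer cells of a type and less RNA per cell cannot be told apart. The mean log2 signal over 14 measured visceral endoderm genes that are not secreted, such as the endocytic receptor genes Amn, Cubn and Lrp2, lay between 11.51 and 11.60 in narrow pools and between 11.53 and 11.56 in wide pools. No measure of array background was at hand, so a dim gene could not be told from an absent one, and signals of different genes were not ranked against each other.

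Afp and Alb belong to the albumin family and lie next to each other in the genome, with the related carrier Afm following Afp. The fibrinogen genes also form a cluster, in the order Fgg, Fga and Fgb. Liver-type promoters are known to bind C/EBP factors close to the transcription start. Neighbours in both clusters had estimated differences between cavities of unlike sign, none of them beyond the spread of the pools. The stretches of 150 bases before the annotated start are shown for both clusters, and no link of their letters to these signs was tested. They come from RefSeq, build GRCm38.p6, namely chr5:90490564-90490713 (plus strand) for Afp, chr5:90460720-90460869 (plus) for Alb, chr3:83026003-83026152 (plus) for Fga, chr3:83049864-83050013 (minus) for Fgb and chr3:83007574-83007723 (plus) for Fgg. Capitals mark the C/EBP motif TTGCNNAA on either strand, and Fgg holds no match.
Afp: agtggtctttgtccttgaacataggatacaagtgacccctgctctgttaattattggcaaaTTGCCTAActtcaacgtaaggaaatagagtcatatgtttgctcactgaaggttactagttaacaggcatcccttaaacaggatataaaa
Alb: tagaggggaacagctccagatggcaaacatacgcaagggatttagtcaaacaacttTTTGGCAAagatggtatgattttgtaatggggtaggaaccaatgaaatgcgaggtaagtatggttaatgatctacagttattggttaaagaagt
Fga: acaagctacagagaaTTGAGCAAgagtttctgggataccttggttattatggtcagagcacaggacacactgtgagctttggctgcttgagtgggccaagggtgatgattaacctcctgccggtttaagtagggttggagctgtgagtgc
Fgb: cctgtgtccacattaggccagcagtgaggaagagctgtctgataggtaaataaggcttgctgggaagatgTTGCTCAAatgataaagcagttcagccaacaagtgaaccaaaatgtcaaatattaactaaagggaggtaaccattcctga
Fgg: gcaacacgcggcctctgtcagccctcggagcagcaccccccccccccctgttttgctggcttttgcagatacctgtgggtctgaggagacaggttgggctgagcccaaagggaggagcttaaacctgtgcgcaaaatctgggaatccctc

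The C/EBP match lay 89 to 82 bases before the annotated start in Afp, 94 to 87 in Alb, 135 to 128 in Fga and 80 to 73 in Fgb. Over the full 250 bases before the start, 4 of the 6 promoters searched (Ambp included, Ttr not) held the C/EBP motif. Of all 32851 promoters in the table, 9.56% held it. The letters AGGTCA, part of the HNF4 motif, were in the windows of Fgg and Ambp (14% of all promoters). The GATA motif AGATAA was in none of the 6 windows (9.99% of all). The TATA box TATAAA was in that of Afp (12.4% of all), 7 to 2 bases before the annotated start. All distances count from the annotated start, whose position was not checked here. A match is a run of letters and no evidence of binding.

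None of the 7 genes differed between narrow and wide cavities beyond the spread of the pools. In limma with Benjamini-Hochberg adjustment over all 19938 genes, 0 members passed an adjusted p of 0.05, against 0% of all genes, and each member had an adjusted p of 1.00. At an unadjusted p under 0.05 there were again 0 members, where 3.4% of all genes lay. Groups overlapped for all 7, whereas 7.7% of genes had groups that did not overlap. The differences, narrow minus wide on the log2 scale, were positive for 4 members and negative for 3 and ran from -0.101 (Fga) to 0.107 (Fgb). Their median was 0.0111, beside 0.00106 over all genes. The median size of a difference was 0.0417 over the members and 0.0351 over all genes.

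**Figure D1:**
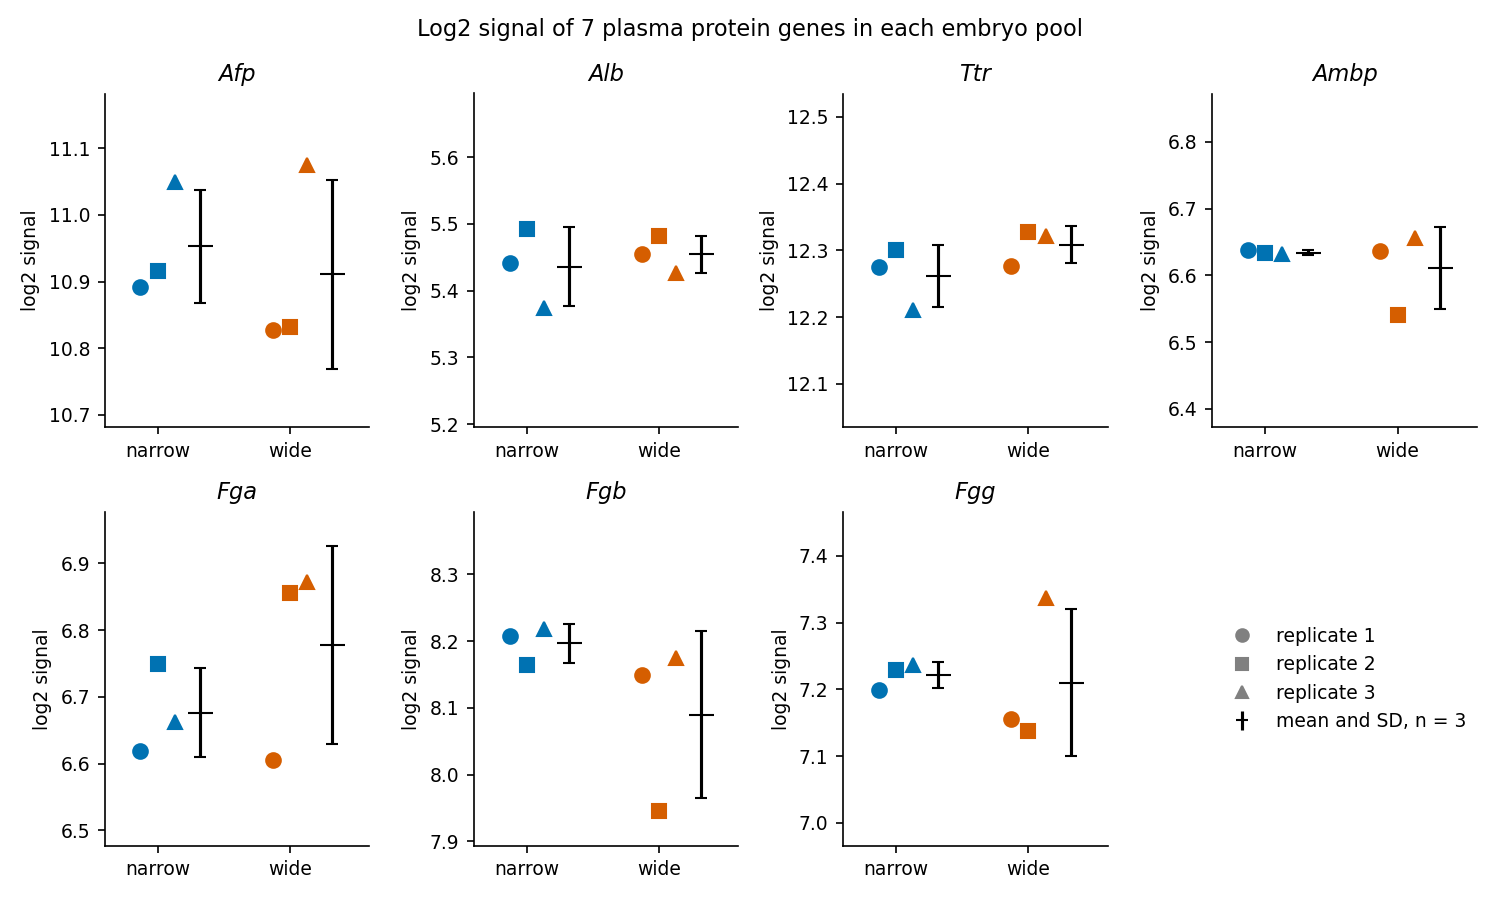
Log2 signal (vertical axis, spanning the same number of log2 units in every panel) of the 7 genes in narrow (blue) and wide (orange) pools, with symbols for the replicate number and bars for the mean and SD of 3 pools. The groups overlap in every panel, and wide pool 2 is the lowest of the 6 for Fgb, Fgg and Ambp.

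Afp codes for the main carrier protein of fetal plasma and is a classical marker of visceral endoderm. Its log2 signal was 10.89, 10.92 and 11.05 in narrow pools 1 to 3 and 10.83, 10.83 and 11.07 in wide pools 1 to 3. The third pool was the highest in both cavities, so the 2 highest values came from different groups. Narrow pools averaged 10.95 ± 0.09 and wide pools 10.91 ± 0.14 (SD, n = 3 each), a difference of 0.042 ± 0.077 (SE). The 95% interval ran from -0.135 to 0.218, or a change of -8.92% to 16.3% (limma unadjusted p = 0.601, exact permutation p = 0.6). Pools with the same replicate number differed by 0.065, 0.084 and -0.024.

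Alb codes for serum albumin, the major plasma protein after birth. Its signal was 5.44, 5.49 and 5.37 in narrow pools and 5.46, 5.48 and 5.43 in wide pools. These values sat in the dim part of the array's scale, which ran from 4.33 to 14.31 over all features, and how much of them is background was not measured. Mean signals of Ambp (6.62), Fga (6.73) and Fgg (7.22) also lay below the lowest array median of 7.62. Narrow 2 was the highest pool and narrow 3 the lowest. The difference was -0.019 ± 0.046 (95% interval -0.123 to 0.086, limma unadjusted p = 0.695). Afm, the other measured relative, had means of 5.86 in narrow and 5.88 in wide pools, a difference of -0.019 ± 0.038.

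Ttr codes for the carrier of thyroxine that also binds the retinol carrier Rbp4. Its signal was 12.28, 12.30 and 12.21 in narrow pools and 12.28, 12.33 and 12.32 in wide pools. Narrow 3 was the lowest pool, and narrow 1 and wide 1 were nearly equal. The means were 12.26 ± 0.05 and 12.31 ± 0.03 (SD, n = 3 each). The difference of -0.046 ± 0.043 had a 95% interval of -0.145 to 0.053 (limma unadjusted p = 0.312, exact permutation p = 0.2). Ttr was the only member that was lower in narrow in 3 of 3 same-numbered pairs (-0.001, -0.027 and -0.112), as were 13.9% of all genes. Without narrow 3 the difference was -0.020. Its binding partner Rbp4 had a signal of 10.25 in narrow and 10.07 in wide pools and a difference of 0.178 ± 0.087 (limma unadjusted p = 0.0742, with the replicate block 0.0091). Without wide 2 the Rbp4 difference was 0.080.

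Ambp codes for a precursor that is split into the lipocalin alpha-1-microglobulin and the protease inhibitor bikunin, which is joined to heavy chains of the Itih family. Its signal was 6.64, 6.63 and 6.63 in narrow pools and 6.64, 6.54 and 6.66 in wide pools. Wide 2 stood below the other 5 pools. The narrow pools had an SD of 0.003 and the wide pools one of 0.062. The difference of 0.023 ± 0.045 had a 95% interval of -0.079 to 0.126 (limma unadjusted p = 0.615, exact permutation p = 0.9). The genes of this family had differences of 0.031 ± 0.056 (Itih1), -0.026 ± 0.057 (Itih2), -0.023 ± 0.058 (Itih3), 0.007 ± 0.051 (Itih4) and 0.011 ± 0.043 (Itih5). Each of these lay within its standard error of 0.

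The fibrinogen chains assemble into one secreted protein in equal numbers. Their estimated differences had unlike signs, and each 95% interval contained 0. Whether the chains differed from each other was not tested. Fga, the alpha chain, had signals of 6.62, 6.75 and 6.66 in narrow pools and 6.61, 6.86 and 6.87 in wide pools. Wide 2 and wide 3 lay above the other 4 pools, while wide 1 was the lowest of all. Narrow pools averaged 6.68 ± 0.07 and wide pools 6.78 ± 0.15 (SD, n = 3 each), a difference of -0.101 ± 0.076. Its 95% interval, -0.276 to 0.073, corresponds to a change of -17.4% to 5.21% (limma unadjusted p = 0.218, exact permutation p = 0.4).

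The size of the Fga difference depended on single pools. It was -0.054 ± 0.082 without wide 3 (unadjusted p = 0.526) and -0.063 ± 0.085 without wide 2 (unadjusted p = 0.486, both limma). Without wide 1 the difference was -0.187 ± 0.055 with an unadjusted p of 0.0108, where 2.57% of all genes were lower in narrow at an unadjusted p under 0.05. In the 4 pools numbered 2 and 3 it was -0.158 ± 0.051 with an unadjusted p of 0.0232, against 2.05% of all genes. The adjusted limma p stayed at 1.00 without wide 1 and at 0.974 in the 4 pools. Fga was also the member with a second array feature, which gave a difference of -0.031, because narrow 1 to 3 read 6.67, 6.76 and 6.66 there and wide 1 to 3 read 6.63, 6.70 and 6.84. The features disagreed most in wide 2, where they read 6.86 and 6.70.

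Fgb, the beta chain, had signals of 8.21, 8.16 and 8.22 in narrow pools and 8.15, 7.95 and 8.18 in wide pools. Wide 2 was far below the rest, and wide 3 lay above narrow 2. The means were 8.20 ± 0.03 in narrow and 8.09 ± 0.13 in wide pools (SD, n = 3 each), a difference of 0.107 ± 0.064. The 95% interval of -0.040 to 0.254 corresponds to a change of -2.77% to 19.3% (limma unadjusted p = 0.133, exact permutation p = 0.2). In Fgb the narrow pool exceeded the wide pool of the same number 3 times out of 3 (0.059, 0.218 and 0.044), as were 14.8% of all genes. Without wide 2 the difference was 0.035 ± 0.048, with an unadjusted p of 0.487.

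Fgg, the gamma chain, had signals of 7.20, 7.23 and 7.24 in narrow pools and 7.16, 7.14 and 7.34 in wide pools. All narrow values lay between the extremes of the wide pools. The difference was 0.011 ± 0.059 (95% interval -0.124 to 0.146, limma unadjusted p = 0.854, exact permutation p = 1.0). In the pairs it was 0.043, 0.091 and -0.101. A design of 3 pools against 3 cannot give an exact two-sided permutation p below 0.1.

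**Figure D2:**
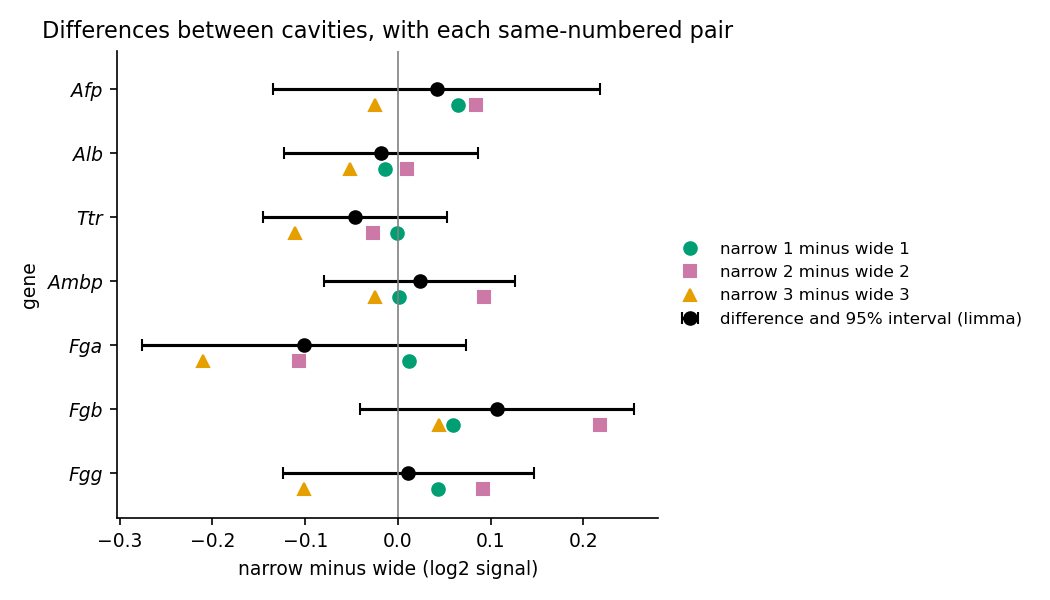
Difference between narrow and wide pools in log2 signal (horizontal axis) for each gene, with its 95% interval from limma as a black bar and the differences of same-numbered pools as coloured symbols. Every interval contains 0, and the pair numbered 3 is the lowest of the 3 pairs for each of the 7 genes. How many of all genes share this pattern was not counted.

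The members varied unequally among pools of one cavity. The pooled SD within groups was 0.117 for Afp, 0.115 for Fga, 0.091 for Fgb and 0.080 for Fgg, above the median of 0.0667 over all genes. Alb (0.046), Ambp (0.044) and Ttr (0.038) lay below it. Afp, Fga, Fgg and Ambp were highest in wide 3, and Fgb, Fgg and Ambp were lowest in wide 2. For each of the 7 genes, narrow minus wide was lowest in the pair numbered 3, but the share of all genes with this pattern was not counted. The mean of the 7 log2 signals, each centred on its own mean, was -0.014, 0.016 and 0.002 in narrow pools and -0.038, -0.036 and 0.070 in wide pools. The 5 genes nearest to this mean profile over the 6 arrays were Strn4, Vmn2r105, Fam98c, Pradc1 and 4930430F08Rik. Their root mean square difference from it was 0.0065 to 0.0103, beside a median of 0.0662 over all 19931 other genes. They were picked for the smallest such difference, so this closeness was fixed by the choice. Vmn2r105 was dim, with a mean signal of 4.67 in narrow and 4.67 in wide pools.

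Across all genes the arrays numbered 1 stood apart from the others in both cavities, with first principal component scores of -10.6 and -8.01 beside 2.76 to 5.87 (38.5% of the variance). Of the members, Fga alone had both pools numbered 1 at one end of its 6 values, where they were the lowest. With the replicate number as a block, the standard error of Afp fell from 0.077 to 0.039, and again 0 members had an unadjusted p under 0.05, where 7.25% of all genes did. The smallest values in that paired fit were 0.0629 for Fgb and 0.0915 for Fga, with adjusted p-values of 0.688 and 0.733.

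Other genes of the same functions were read from the same fit. Of 27 measured plasma protein genes besides the members, 19 had positive differences (70.4%, beside 50.9% of all genes), with a median of 0.0272. At an unadjusted p under 0.05, 2 were higher in narrow and 0 lower, where 1.68% and 1.72% of all genes lay. These were the iron carrier transferrin, Trf (0.179 ± 0.048, limma unadjusted p = 0.0057), and Apoc3, an apolipoprotein of triglyceride-rich particles (0.189 ± 0.062, limma unadjusted p = 0.0160). For both, all narrow pools lay above all wide pools. They were the only 2 of the 27 without overlap between groups, beside 7.7% of all genes. Neither passed the limma test over all genes. With the replicate block, 4 of the 27 were higher and 0 lower at that p, where 705 of all 19938 genes were higher and 741 lower. Among 21 coagulation and fibrinolysis genes the median was 0.000204 with 0 at that p. The nearest were the thrombin receptor thrombomodulin, Thbd (0.132 ± 0.060), and the clotting factor F9 (-0.085 ± 0.048). F9 was dim, with means of 4.69 in narrow and 4.77 in wide pools. The block gave 2 higher, 1 of them Thbd, and 0 lower of the 21, beside the counts over all genes just given. Among 13 relatives with a fibrinogen-like domain the median was -0.0157 with 0 at that p, led by the ficolin Fcna (0.083 ± 0.050) and the vessel ligand Angpt1 (-0.060 ± 0.049).

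Regulators of liver-type genes had a median of 0.000259 over 16 measured, with 8 positive and 8 negative. Foxa1, a forkhead factor that opens chromatin in endoderm, was the 1 at an unadjusted p under 0.05 (0.160 ± 0.041, limma). Over all genes the share at that p was 3.4%. The forkhead factor Foxa2 had a difference of 0.134 ± 0.062 and Onecut1 one of -0.122 ± 0.054. The nuclear receptor Hnf4a, a main driver of plasma protein genes in visceral endoderm, had -0.064 ± 0.040, with means of 11.92 in narrow and 11.99 in wide pools. Gata4 had -0.032 ± 0.062, Gata6 -0.014 ± 0.051 and Sox17 0.061 ± 0.056. Zbtb20, a repressor of Afp in the liver after birth, had 0.086 ± 0.042, and 0.054 with the mean over its features. It was dim, with means of 6.31 in narrow and 6.23 in wide pools. With the replicate block, 4 of the 16 were higher and 1 was lower at that p, where 7.25% of all genes lay. Among them the unadjusted limma p-values were 0.0100 for Foxa2, 0.0174 for Onecut1 and 0.0448 for Zbtb20, and 0 genes passed after adjustment. All narrow pools lay above all wide pools for 2 of the 16, Foxa1 and Zbtb20, and below them for 2, Onecut1 and Hnf4a, beside the 7.7% of all genes given above. The gp130 receptor and STAT3 response induces fibrinogen in the liver during inflammation. Of its 11 genes, 0 were higher and 1 was lower at that p, the receptor Osmr (-0.143 ± 0.053, limma, and -0.089 without wide 3). With the block 0 were higher and 2 lower, where 705 of all 19938 genes were higher and 741 lower. All narrow pools lay above all wide pools for 3 of the 11, Lif among them, and below them for 1, Osmr. Of all genes, 7.7% had no overlap in either direction. The ligand Lif had 0.080 ± 0.043.

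**Figure D3:**
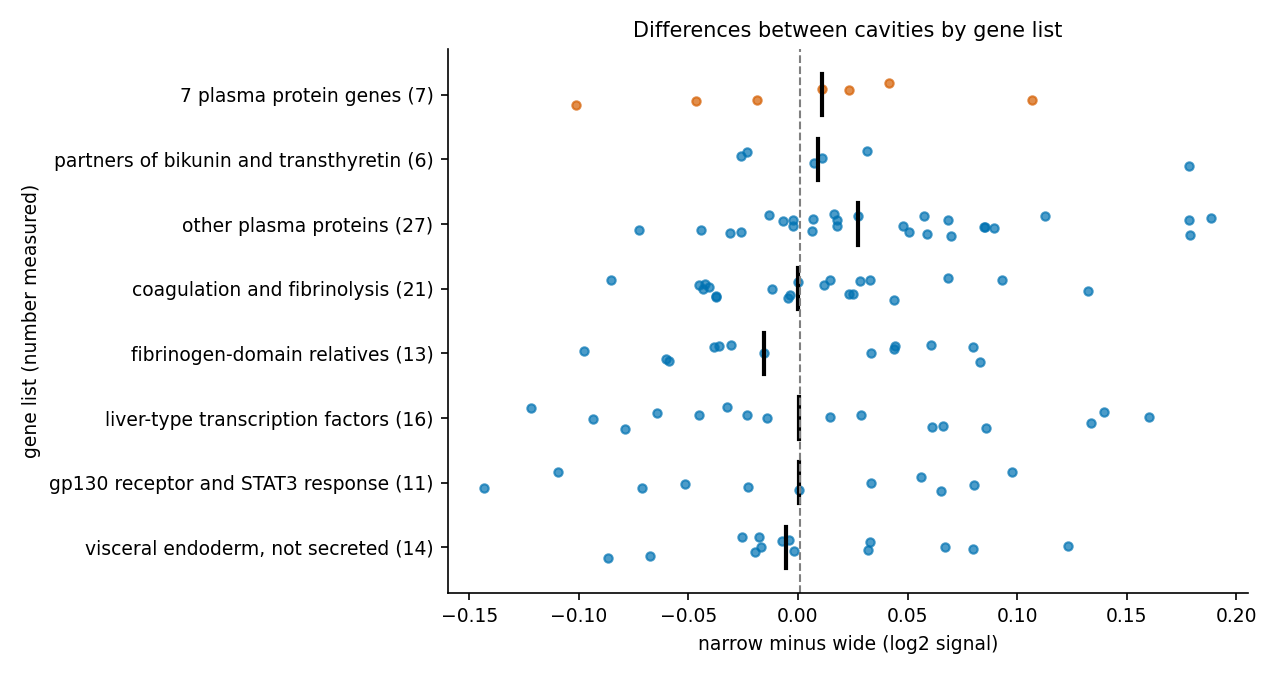
Difference between narrow and wide pools in log2 signal (horizontal axis) for each measured gene of 8 lists, with the list median as a black bar and the median of all genes as a dashed line. The 7 plasma protein genes spread to both sides of 0 between -0.101 and 0.107, and the medians of the 8 lists lie between -0.0157 and 0.0272.

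Markers of the tissues in the pools were set beside these values. Visceral endoderm genes that are not secreted had a median difference of -0.00563 over 14, with 0 at an unadjusted p under 0.05, among them Pdzk1 (-0.087 ± 0.054) and Tmprss2 (0.067 ± 0.062). Of all genes, 1.68% were higher and 1.72% lower at that p. The 12 distal visceral endoderm genes had a median of 0.0816 with 5 higher at that p, led by the Nodal antagonists Lefty1 (0.310 ± 0.053) and Cer1 (0.700 ± 0.127). The epiblast list had 0 of 10 (Sox2 -0.095 ± 0.047, Nanog -0.162 ± 0.089), and the extraembryonic ectoderm list had 2 of 10, both lower (Esrrb -0.222 ± 0.045, Bmp4 -0.207 ± 0.077). There were 0 at that p among parietal endoderm genes (10 measured, Thbd 0.132 ± 0.060, Fst 0.111 ± 0.056), where Thbd is also on the coagulation list above. Likewise 0 were at that p among giant cell and ectoplacental cone (5, Ascl2 0.213 ± 0.120, Tpbpa 0.086 ± 0.089), decidua (10, Bmp2 0.144 ± 0.065, Prl8a2 -0.080 ± 0.058) and blood genes (9, Hba-x -0.202 ± 0.096, Hbb-y -0.082 ± 0.040). Genes of mature hepatocytes also had 0 of 9 (Tat 0.079 ± 0.046, Otc 0.048 ± 0.040). With the block the counts were 6 higher for distal visceral endoderm, 4 lower for extraembryonic ectoderm and 1 lower for epiblast. They were 1 higher for parietal endoderm, which was Thbd, and 1 in each direction for decidua. Foxa2 was among the 6 distal visceral endoderm genes and was also counted with the liver-type regulators above. The block also raised the share of all genes at that p in either direction, from 3.4% to 7.25%. The mean signal of the hepatocyte list was 6.11 to 6.22 in narrow and 6.13 to 6.22 in wide pools.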

How the data were processed

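Each of the 6 samples was hybridized to 1 Affymetrix Mouse Gene array. The deposited log2 signals were used as the authors gave them. The sources used here do not give how the authors corrected, summarized and normalized them. Array medians lay between 7.62 and 7.67. If values had been scaled between arrays, any change in total RNA was removed. Of 28853 features, 21789 named 1 gene, 1621 several and 5443 none in the platform annotation.

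Narrow minus wide was fitted for 19938 genes with limma 3.58.1 in R 4.3.3 (lmFit, eBayes, two-sided, no covariate, no filter) and adjusted by Benjamini-Hochberg. The fit was tested on simulated data. The shifts there were larger than any difference found here, and the noise held no shared effect of the replicate number. That test thus does not bear on small differences. The members, lists, tests and rule for named genes were chosen with earlier results of these data known. The rule named the members, the 2 genes of each list with the smallest p, all albumin relatives and bikunin and transthyretin partners, 6 measured regulators and the 5 most similar profiles. Deviations from group means correlated at 0.516, 0.176 and 0.272 between same-numbered arrays, so equal numbers were treated as pairs, although narrow 2 and wide 3 correlated at 0.178. The meaning of a number is not given in the labels, and the design text calls the pools biological replicates. Alternatives were the replicate block, leaving out each array, the 4 arrays numbered 2 and 3, genes above the median signal, renewed quantile normalization, the mean over features, trended robust eBayes and a test with unequal variances.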

Additional observations from a re-analysis of the deposited data

How the results depend on the processing

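Under each of the 13 alternatives, of which 1 was the test with unequal variances and the others used limma, 0 genes passed the adjusted threshold. The 678 genes at an unadjusted p under 0.05 became 1446 with the replicate block and 384 among genes above the median signal, where 9969 were tested, and the block changed no call of a member but raised the counts of several lists given in the report. Over 87 refitted values of the 7 genes, 80 kept their sign, 7 changed it and 0 passed. Part of the 87 could not change sign. The replicate block, the trended robust eBayes and the test with unequal variances leave every estimate as it was. So do the restriction to genes above the median signal and, for genes with 1 feature, the mean over features. Leaving out each array gave -0.0070 to 0.123 for Afp, -0.047 to 0.012 for Alb, -0.025 to 0.075 for Fgg and -0.012 to 0.046 for Ambp. Afp changed sign without narrow 3 or wide 1, Alb without narrow 3, Fgg without wide 1 or wide 2 and Ambp without wide 2. Fgg was -0.0049 in the 4 arrays numbered 2 and 3. Ttr, Fga and Fgb kept their sign throughout, with -0.066 to -0.020, -0.187 to -0.054 and 0.035 to 0.149 when 1 array was left out. The members' median was 0.0111 and lay between -0.0163 and 0.0457 in the fits with 1 array fewer. Of 564 values of 45 other named genes, 30 changed sign, and here too the settings that leave an estimate as it was are counted. Causes were not tested. The number of arrays limits the precision, and array background was not measured. Among genes above the median signal only Afp, Ttr and Fgb remained in the fit, so no median was computed there.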
